A study of Mus musculus with 10 samples.

Results

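Phosphatidylethanolamine and phosphatidylcholine, the main phospholipids of liver membranes, are built from ethanolamine and choline by parallel routes in which each base is phosphorylated, activated with CTP and joined to diacylglycerol. Etnppl encodes ethanolamine-phosphate phospho-lyase, an enzyme that uses pyridoxal phosphate to break phosphoethanolamine into ammonia, phosphate and acetaldehyde and so takes it out of the CDP-ethanolamine route. Pemt, a liver enzyme, links both routes by methylating phosphatidylethanolamine to phosphatidylcholine.

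Etnppl was set beside 7 further genes of these routes, which makes 8 genes listed out of 22180 named genes on the array. Etnppl was picked because it was lower with follistatin FST288 than with GFP in both backgrounds, so those differences are given as a description. The other genes were listed for their function: Etnk1 and Etnk2 (ethanolamine kinases), Pcyt2 (which makes CDP-ethanolamine), Chka and Chkb (choline kinases), Pcyt1a (which makes CDP-choline) and Pemt. Of the 8 genes, 6 had a transcript cluster assigned to that symbol alone. Chkb was listed only on 2 clusters shared with other symbols, which were not used. Etnk2 had no listed cluster and was not analysed here.

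The samples were livers of fasted male mice, each on 1 array, collected about 2 weeks after an adeno-associated virus labelled aav-tbg, a name that stands for a promoter active in hepatocytes. There were 2 LTKO FST288, 2 LTKO GFP, 3 HFD FST288 and 3 HFD GFP arrays. FST288 is a form of follistatin, which is secreted and captures activins, and GFP is the control cargo. HFD livers came from wild-type animals fed a high-fat diet. LTKO is not expanded in the labels. As background, LTKO mice are known as a model with hepatic loss of Irs1 and Irs2, which carry the insulin signal, and of Foxo1, a transcription factor that insulin restrains. They give no diet for the LTKO mice and no age for either, so genotype and diet cannot be told apart in any LTKO against HFD comparison. Separate animals per array are not stated either, and p-values therefore cover only the spread among these samples, which may be technical.

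On the arrays, Fst averaged 6.79 ± 0.08 in LTKO FST288 and 5.35 ± 0.06 in LTKO GFP livers (SD, n = 2 each), and 6.35 ± 0.52 in HFD FST288 and 5.27 ± 0.06 in HFD GFP livers (SD, n = 3 each), on the log2 scale of RMA values used throughout. The LTKO minus HFD difference with GFP was -1.77 for Irs1, -1.21 for Irs2 and -1.68 for Foxo1, all called. The median of 6 hepatocyte markers was 11.06 and 11.21 in LTKO FST288, 11.20 and 11.23 in LTKO GFP, 11.32 to 11.36 in HFD FST288 and 11.46 to 11.57 in HFD GFP livers. HFD FST288 replicates 2 and 3 stood apart: the median of 7 pancreatic acinar markers was 8.59 and 7.48 there, against 2.59 on replicate 1 and 2.77 to 2.88 on HFD GFP arrays. In LTKO FST288 livers the median of 6 Kupffer cell markers was 6.22 and 7.71, against 5.60 and 5.66 in LTKO GFP livers. It was 5.49 to 5.83 in HFD FST288 and 5.38 to 6.14 in HFD GFP livers. Between the LTKO groups 0 of the 6 markers were called, beside 0.167% of all genes. In whole liver, fewer cells of a type and less RNA per cell cannot be told apart.

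The 300 bases around the annotated starts of the genes with the widest differences, Etnppl and Chka, are shown for the regions just upstream of them, as RefSeq gives them on GRCm38.p6. Each runs from 250 bases before the start to 50 bases from it onward. RefSeq lists 2 starts of Etnppl, 127 bases apart, and the more upstream one is shown, at chr3:130617198-130617497 on the plus strand. The Chka window is chr19:3851523-3851822, also on the plus strand. RefSeq begins the Chka gene at 3851585, inside this window, so the start used for Chka lies downstream of the beginning of the gene. Capitals mark the letters CAGAC, a short element that SMAD proteins, the carriers of activin signals, can bind.
Etnppl: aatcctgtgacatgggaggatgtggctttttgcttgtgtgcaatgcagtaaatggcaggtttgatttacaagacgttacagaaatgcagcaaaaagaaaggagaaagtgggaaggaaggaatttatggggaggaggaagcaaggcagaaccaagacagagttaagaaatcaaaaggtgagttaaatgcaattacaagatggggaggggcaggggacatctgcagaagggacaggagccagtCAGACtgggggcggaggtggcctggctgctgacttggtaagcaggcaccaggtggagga
Chka: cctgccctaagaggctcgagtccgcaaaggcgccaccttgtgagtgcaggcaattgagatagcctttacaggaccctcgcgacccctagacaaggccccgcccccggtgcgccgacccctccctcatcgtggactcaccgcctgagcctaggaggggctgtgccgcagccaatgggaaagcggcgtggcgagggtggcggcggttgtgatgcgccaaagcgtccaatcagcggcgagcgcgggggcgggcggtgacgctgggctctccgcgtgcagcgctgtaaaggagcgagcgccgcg

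The Etnppl window holds CAGAC once, beginning 9 bases before the start, and the Chka window does not hold it on either strand. The element is common: 49.6% of 32851 promoter windows of the same length contain CAGAC or its reverse complement GTCTG. Neither window holds TGTTTAC, a FoxO core element found in 3.65% of windows, nor the E-box CACGTG found in 7.15%, with both strands searched. These matches describe letters only. The windows also differ in base makeup, with 49.3% G and C for Etnppl and 68.7% for Chka, against a median of 52.7% over all windows.

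Etnppl transcript stood highest in LTKO GFP livers and lowest in HFD FST288 livers. Its values were 8.96 and 9.13 in LTKO FST288 livers, against 10.10 and 9.93 in LTKO GFP livers. In HFD livers they were 7.98, 8.07 and 7.91 with FST288, against 8.73, 8.81 and 8.92 with GFP. Within each background no FST288 value reached a GFP value. The log2 differences were -0.97 in LTKO and -0.84 in HFD livers, that is, 1.96-fold and 1.78-fold lower. Both describe the values that chose the gene.

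**Figure D1:**
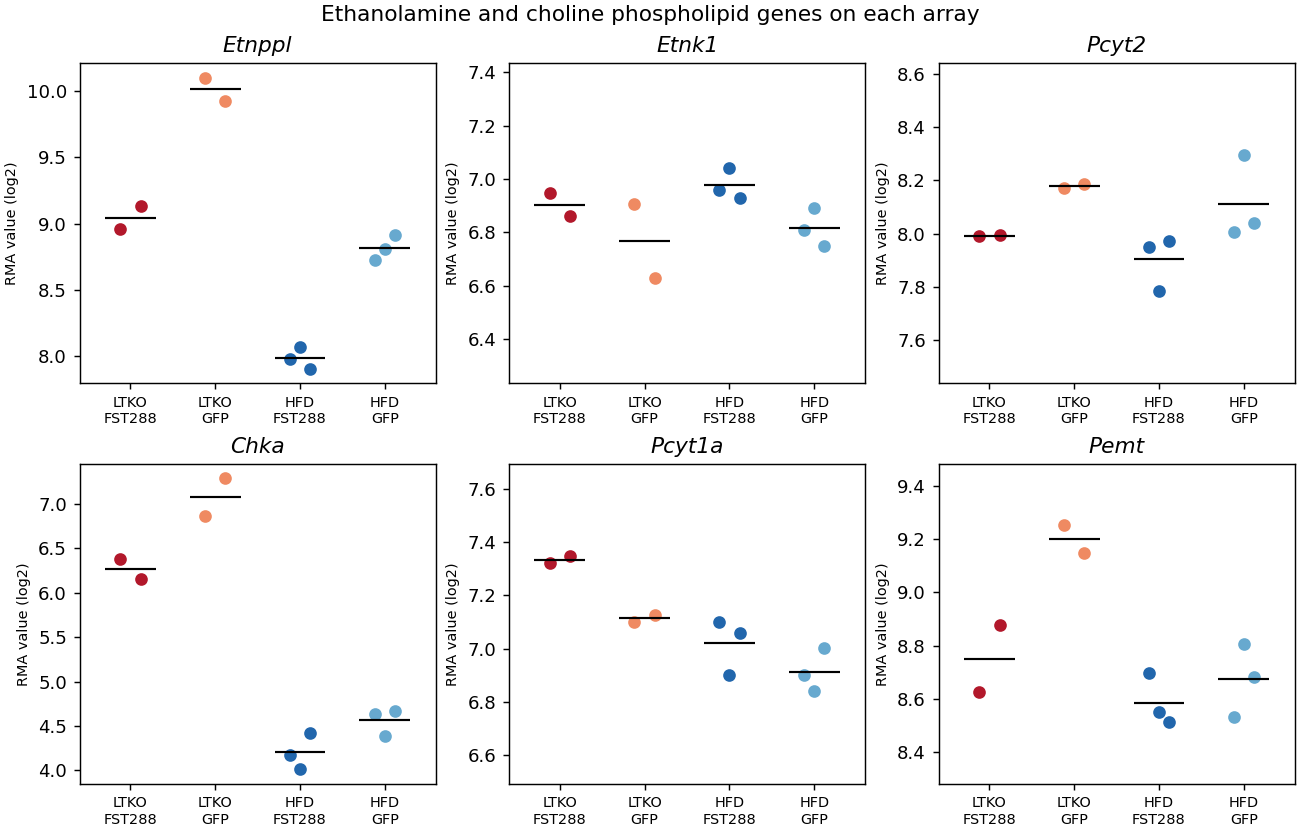
RMA values (log2, vertical axis, scaled per gene) of the 6 measured genes on each of the 10 arrays, grouped by background and vector, with 1 point per array and a line at the group mean. Etnppl and Chka are higher on every LTKO array than on the HFD arrays of the same vector, while Etnk1 stays between 6.63 and 7.04 on all arrays.

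The FST288 effect on Etnppl in LTKO livers minus that in HFD livers was -0.14, also a description. HFD FST288 replicate 1, which lacked the acinar signal, had 7.98, between its group's other values. Without both acinar-high arrays, a setting chosen after seeing the data that left 1 array in the group, the HFD difference was -0.84. Over all 22 alternative settings it lay between -0.91 and -0.79, but many of these cannot move it. Changes of the variance model, of the filter or to the LTKO arrays leave both HFD means as they are. Markers of pericentral hepatocytes, the cells around the central vein, were lower alongside Etnppl in HFD livers. Their median over 6 genes was 8.28 to 8.34 in HFD FST288 and 8.98 to 9.08 in HFD GFP livers. Of the 6, 3 fell with FST288, where 0.996% of all genes were called. In LTKO livers that median was 8.67 and 8.80 with FST288 and 8.85 and 8.89 with GFP. None of the 6 was called there by limma, where 0.167% of all genes were called. Between LTKO GFP and HFD GFP livers 2 of the 6 were higher and 2 lower, beside 13.1% of all genes called. Of the 6 general hepatocyte markers, 2 also fell with FST288 in HFD livers and none was called in LTKO livers, beside the same 0.996% and 0.167%. The part of these markers in the Etnppl difference was not tested.

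LTKO livers carried more Etnppl than HFD livers under either vector. With GFP the difference was 1.197 ± 0.094 (log2, SE of the fit), 2.29-fold higher, with an adjusted p of 1.91e-06 from limma with Benjamini-Hochberg adjustment over all genes. With FST288 it was 1.06 ± 0.09, 2.09-fold higher (limma, adjusted p = 5.58e-06). These comparisons share no arrays, and the fit over 10 arrays gave them 1 estimate of the spread. Ranked by size, Etnppl was number 163 of 22180 genes from the top with GFP and number 251 with FST288. The order of group means was LTKO GFP (10.02), LTKO FST288 (9.04), HFD GFP (8.82) and HFD FST288 (7.98). The middle groups lay closest: their nearest arrays, at 8.96 in LTKO FST288 and 8.92 in HFD GFP livers, were nearer to each other than either group's SD (0.12 and 0.09).

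Chka, the choline kinase that also accepts ethanolamine, showed the widest difference of the measured genes between backgrounds. Its values were 6.38 and 6.15 in LTKO FST288 and 6.87 and 7.29 in LTKO GFP livers. HFD FST288 livers had 4.18, 4.01 and 4.42, and HFD GFP livers 4.64, 4.38 and 4.67. All LTKO values lay above all HFD values. With GFP, Chka was 5.71-fold higher in LTKO than in HFD livers (log2 difference 2.51 ± 0.16, limma, adjusted p = 3.48e-07), number 24 of 22180 genes from the top. With FST288 it was 4.17-fold higher (2.06 ± 0.16, limma, adjusted p = 2.03e-06).

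These values come from transcript cluster 17355984, the brighter of 2 clusters listed for Chka. The other cluster lay between 1.68 and 2.14 on all arrays, under the array medians of named genes (3.10 to 3.17), and was not higher in LTKO livers: 1.87 and 2.07 in LTKO FST288, 1.68 in both LTKO GFP, 1.90 to 2.14 in HFD FST288 and 1.86 to 2.03 in HFD GFP livers. With the mean of both clusters the differences between backgrounds were 1.11 with GFP and 1.02 with FST288, still called (limma, adjusted p = 0.000107 and 0.000231).

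Chka was also lower with FST288 than with GFP, without a call in either background alone. The log2 difference was -0.82 ± 0.18 in LTKO livers (limma, adjusted p = 0.138) and -0.36 ± 0.15 in HFD livers (adjusted p = 0.331). In LTKO livers the groups did not overlap, while in HFD livers the highest FST288 value, 4.42, lay above the lowest GFP value, 4.38. Averaged over backgrounds Chka fell by 0.59 ± 0.12 on the log2 scale (limma, adjusted p = 0.0383). That call is fragile. It was lost in 13 of 21 alternative settings, where the adjusted p over all settings ran from 0.0265 to 0.517. Among fits with 1 array left out, the losing ones were those without LTKO FST288 replicate 2 (0.114), LTKO GFP replicate 2 (0.152), HFD FST288 replicates 1 (0.0718) and 2 (0.0965), and HFD GFP replicates 1 (0.092) and 3 (0.104). The change was -0.69 to -0.48 over all 10 fits with 1 array left out, -0.60 without both acinar-high arrays (0.231) and -0.21 with the mean of both clusters (0.517).

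Pemt, which makes phosphatidylcholine from phosphatidylethanolamine, was high in LTKO livers with GFP. Values were 8.63 and 8.88 in LTKO FST288 and 9.25 and 9.15 in LTKO GFP livers, and 8.70, 8.55 and 8.51 in HFD FST288 and 8.53, 8.81 and 8.68 in HFD GFP livers. Both LTKO GFP arrays lay above all others, and the remaining groups overlapped one another. With GFP, Pemt was 1.44-fold higher in LTKO than in HFD livers (log2 difference 0.53 ± 0.10, limma, adjusted p = 0.00411). Between the FST288 groups the difference was 0.17 (95% interval -0.06 to 0.39, adjusted p = 0.432). FST288 against GFP gave -0.45 in LTKO livers (-0.70 to -0.20, adjusted p = 0.196) and -0.09 in HFD livers (-0.29 to 0.11, adjusted p = 0.782). The difference of these effects, -0.36, had an interval from -0.68 to -0.04 and an adjusted p of 0.339, so no difference between backgrounds was called.

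Etnk1 and Pcyt2, of the first steps of the CDP-ethanolamine route, differed less between groups. Etnk1 values ran from 6.63 to 7.04 over all arrays, with group means of 6.90 ± 0.06 in LTKO FST288, 6.77 ± 0.20 in LTKO GFP, 6.98 ± 0.06 in HFD FST288 and 6.82 ± 0.07 in HFD GFP livers. The HFD FST288 arrays (6.93 to 7.04) lay above the HFD GFP arrays (6.75 to 6.89), while the LTKO groups overlapped. Pcyt2 values were 7.99 on both LTKO FST288 arrays, 8.17 and 8.18 with LTKO GFP, 7.95, 7.79 and 7.97 with HFD FST288, and 8.005, 8.29 and 8.04 with HFD GFP. In both backgrounds every FST288 value of Pcyt2 lay below every GFP value, by a narrow margin. The differences were -0.19 in LTKO livers (95% interval -0.43 to 0.06) and -0.21 in HFD livers (-0.41 to -0.01), neither called (limma, adjusted p = 0.641 and 0.372). For Etnk1 they were 0.14 (-0.12 to 0.39) and 0.16 (-0.05 to 0.37), also not called (adjusted p = 0.766 and 0.571). Between backgrounds the intervals for both genes lay within -0.30 and 0.31 under either vector.

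Pcyt1a, the rate-setting step of the CDP-choline route, had its highest values in LTKO FST288 livers. They were 7.32 and 7.35 there, 7.10 and 7.13 in LTKO GFP, 7.10, 6.90 and 7.06 in HFD FST288, and 6.90, 6.84 and 7.0004 in HFD GFP livers. LTKO FST288 arrays lay above all others, yet the difference from HFD FST288 livers, 0.31 (95% interval 0.10 to 0.53), missed the threshold (limma, adjusted p = 0.0638). It was called with quantile normalization (0.36, adjusted p = 0.0307) and with dim genes left out (adjusted p = 0.0319), and over all alternatives the adjusted p ran to 0.529. FST288 against GFP gave 0.22 in LTKO livers and 0.11 in HFD livers (adjusted p = 0.533 and 0.707).

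**Figure D2:**
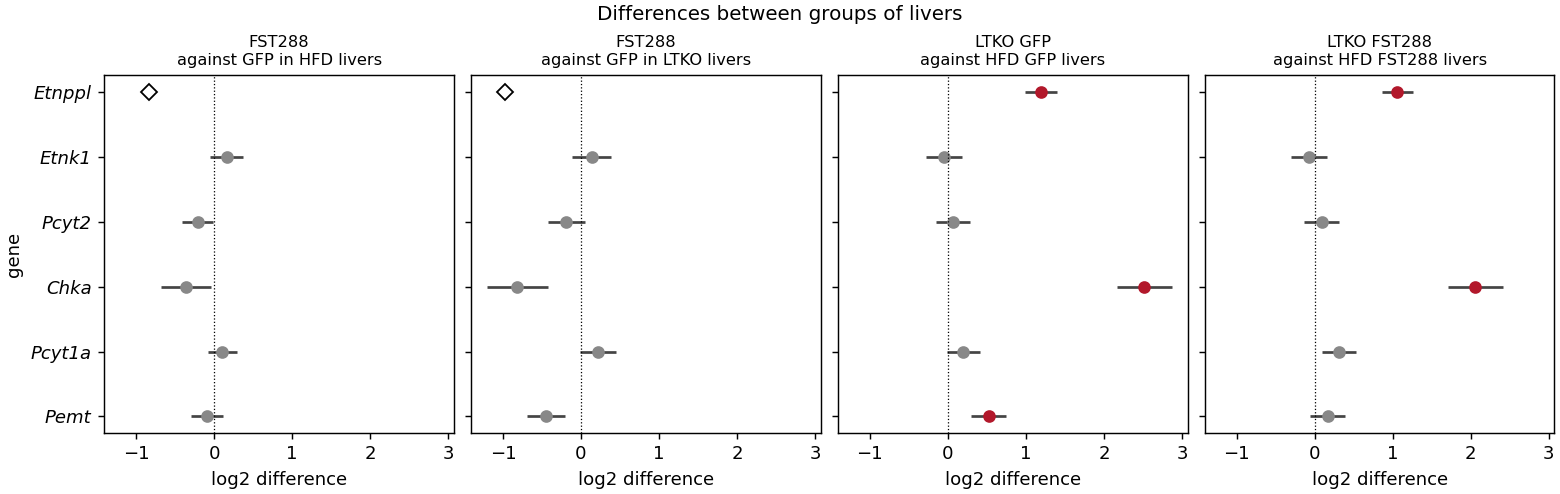
Log2 differences (horizontal axis) of the 6 measured genes in 4 comparisons, with 95% intervals of the fit. Red points were called at an adjusted p under 0.05, grey ones were not, and open diamonds mark the Etnppl differences that chose the gene, given without a test. Calls appear only in the LTKO against HFD panels, for Etnppl and Chka under both vectors and for Pemt with GFP.

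Counted over genes, 3 of 6 measured genes were higher and none lower in LTKO livers with GFP, where 13.1% of all 22180 genes were called. Between LTKO FST288 and HFD FST288 livers 2 of 6 were higher and none lower, with 10.3% of all genes called. The median difference over the 6 genes was 0.36 with GFP and 0.24 with FST288, against 0.01 and -0.00 over all genes. Leaving out Etnppl, none of the other 5 was called with FST288 in HFD livers (limma, 2 at an unadjusted p under 0.05), where 0.996% of all genes were called. The count was also 0 of 5 in LTKO livers (2 at an unadjusted p under 0.05), with 0.167% of all genes called. For the average of both backgrounds 1 of 5 fell (4 at an unadjusted p under 0.05), with 0.622% called. For the difference between backgrounds the count called was 0 of 5 (1 at an unadjusted p under 0.05), with 0.216% called. Of all 22180 genes, 2672 in HFD livers and 2213 in LTKO livers had an unadjusted p under 0.05 with FST288. For the average there were 2075 such genes and for the difference 2795.

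Neighbouring steps were read from 11 lists chosen by function, with earlier results of these data known. They held 51 genes, of which 48 were measured. In LTKO GFP against HFD GFP livers 12 of the 48 rose and 1 fell, 35 not being called, beside 13.1% of all genes called, and the median difference was 0.21, against 0.01 over all genes. In LTKO FST288 against HFD FST288 livers 9 rose and 3 fell, beside 10.3% of all genes called, with a median of 0.13, against -0.00 over all genes. With FST288 against GFP, 1 rose and 1 fell in HFD livers, where 0.996% of all genes were called. In LTKO livers none of 48 was called by limma, where 0.167% of all genes were called. An unadjusted p under 0.05 was found there for 8 of the 48 and for 2213 of all 22180 genes.

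Of the list genes called, the one with the widest fall in LTKO against HFD livers was Gpcpd1, which splits glycerophosphocholine and so releases choline. Its values were 7.90 and 7.73 in LTKO FST288 and 7.39 and 6.78 in LTKO GFP livers, against 10.05, 9.78 and 9.98 in HFD FST288 and 9.67, 9.34 and 9.78 in HFD GFP livers. No LTKO value reached an HFD value. Gpcpd1 was 5.70-fold lower with GFP and 4.37-fold lower with FST288 (log2 differences -2.51 ± 0.16 and -2.13 ± 0.16, limma, adjusted p = 3.39e-07 and 1.49e-06). FST288 against GFP gave 0.73 in LTKO and 0.34 in HFD livers, neither called (adjusted p = 0.179 and 0.357).

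Selenoi, the ethanolaminephosphotransferase that finishes the CDP-ethanolamine route, rose in LTKO livers. Values were 7.77 and 7.63 in LTKO FST288 and 7.74 and 7.79 in LTKO GFP livers, against 6.72 to 6.82 in HFD FST288 and 6.58 to 6.67 in HFD GFP livers. The groups of each vector were well apart. It was 2.20-fold higher with GFP and 1.88-fold higher with FST288 (limma, adjusted p = 2.82e-06 and 2.02e-05). Cept1, the other enzyme of that step, had no cluster of its own.

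Among other sources and users of phosphoethanolamine, Sgpl1, the sphingosine-1-phosphate lyase that yields it from sphingolipids, had values of 6.80 and 7.01 in LTKO FST288 and 7.33 and 7.26 in LTKO GFP livers. HFD FST288 livers had 6.43 to 6.53 and HFD GFP livers 6.21 to 6.38, below every LTKO value. In LTKO livers Sgpl1 was 1.99-fold higher with GFP (limma, adjusted p = 2.57e-05) and 1.34-fold higher with FST288 (adjusted p = 0.0177). The second call was lost without HFD FST288 replicate 3 (0.0662) or LTKO FST288 replicate 2, where the difference was 0.32 (0.193). FST288 against GFP was -0.39 in LTKO and 0.18 in HFD livers, with adjusted p of 0.266 and 0.489 and of 0.147 for their difference. Sphk2, a kinase that forms sphingosine-1-phosphate, rose 1.69-fold in LTKO GFP livers (adjusted p = 0.00139), and Sgms1, a sphingomyelin synthase, 1.76-fold in LTKO FST288 livers (adjusted p = 0.00487). The Sgms1 call was lost without LTKO FST288 replicate 1 (0.58, adjusted p = 0.0814).

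The methyl groups used by Pemt come from S-adenosylmethionine, made in liver by the product of Mat1a. Mat1a values were 12.18 and 12.32 in LTKO FST288 and 12.31 and 12.35 in LTKO GFP livers, against 11.60 to 11.68 in HFD FST288 and 11.43 to 11.64 in HFD GFP livers. It rose 1.53-fold with FST288 and 1.70-fold with GFP (limma, adjusted p = 5.95e-05 and 7.67e-06). Ahcy, which clears the methylation product, varied widely within LTKO groups, at 9.44 and 10.85 with FST288 and 11.06 and 9.37 with GFP. Its call in LTKO GFP livers (1.49, adjusted p = 0.0332) was lost without LTKO GFP replicate 1 (0.64, 0.405) and without HFD GFP replicates 1 (0.116) and 2 (0.0714). Gnmt, a methyltransferase that uses up S-adenosylmethionine, was higher by 0.37 in LTKO FST288 livers (adjusted p = 0.0352). That call was lost in 5 leave-one-out fits, without LTKO FST288 replicates 1 (0.132) and 2 (0.124), HFD FST288 replicates 2 (0.135) and 3 (0.111) and HFD GFP replicate 3 (0.0501).

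Choline supply and head group release gave further calls between backgrounds. Flvcr2, a choline transporter, rose 2.98-fold with FST288 and 2.66-fold with GFP in LTKO livers (limma, adjusted p = 0.000213 and 0.000504). Gdpd1, a glycerophosphodiesterase, rose 3.49-fold and 2.98-fold (adjusted p = 0.000261 and 0.00071). The HFD means of both lay near the array medians of named genes, where a fold is not an exact measure. Gde1, a related enzyme, was higher by 0.38 with GFP (adjusted p = 0.0345), a call lost without HFD GFP replicates 1 (0.0958), 2 (0.0582) or 3 (0.0773) and LTKO GFP replicates 1 (0.206) or 2 (0.0617). Abhd4, a lipase of N-acylethanolamine synthesis, was higher by 0.40 with FST288 and by 0.51 with GFP (adjusted p = 0.0245 and 0.00503). With GFP its call was lost without LTKO GFP replicate 2 (0.0531). With FST288 it was lost without LTKO FST288 replicates 1 (0.138) or 2 (0.0768) and HFD FST288 replicates 2 (0.0959) or 3 (0.0889). The difference was 0.24 without both acinar-high arrays, with 1 array left in the HFD FST288 group.

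Aldh7a1, which oxidises betaine aldehyde among others, and Pnpla7, a lysophospholipase, were lower in LTKO FST288 than in HFD FST288 livers by 0.38 and 0.50 (log2 differences -0.38 and -0.50, limma, adjusted p = 0.0248 and 0.0197). The Aldh7a1 call was lost without LTKO FST288 replicates 1 (0.0515) or 2 (0.163) and HFD FST288 replicates 1 (0.0688) or 3 (0.086). The Pnpla7 call was lost without LTKO FST288 replicate 1 (0.159) and HFD FST288 replicates 1 (0.0531) or 2 (0.0741). The comparison of backgrounds with FST288 holds the acinar-high arrays. It called 5 of 6 Kupffer cell markers higher in LTKO livers, beside 10.3% of all genes called. The part of the Kupffer cell markers in it was not tested. Without the acinar-high arrays the HFD FST288 group held 1 array, and its calls of Abhd4, Aldh7a1, Gnmt, Pnpla7, Sgms1 and Sgpl1 were lost. The differences of Aldh7a1, Pnpla7 and Sgpl1 were no smaller in that fit (-0.41, -0.51 and 0.43). Those of Abhd4, Gnmt and Sgms1 were smaller (0.24, 0.21 and 0.61).

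Of 3 lists, no gene was called by limma in any comparison. In the phosphatidylserine route Pisd, the decarboxylase that turns phosphatidylserine into phosphatidylethanolamine, differed by 0.69 in LTKO GFP against HFD GFP livers (adjusted p = 0.053, 1 of 3 genes at an unadjusted p under 0.05). Among the 6 reacylation genes Lpcat3, which remodels phosphatidylcholine, differed by 0.26 there (adjusted p = 0.0799, 3 of 6 at an unadjusted p under 0.05). Of the other genes of the CDP-choline route, Chpt1 differed by -0.35 with FST288 in HFD livers (limma, adjusted p = 0.286). Pcyt1b differed by 0.28 in LTKO GFP against HFD GFP livers (limma, adjusted p = 0.231). Its means there, 2.43 and 2.16, lay under the array medians of named genes (3.10 to 3.17). In LTKO GFP against HFD GFP livers 5582 of all 22180 genes had an unadjusted p under 0.05.

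**Figure D3:**
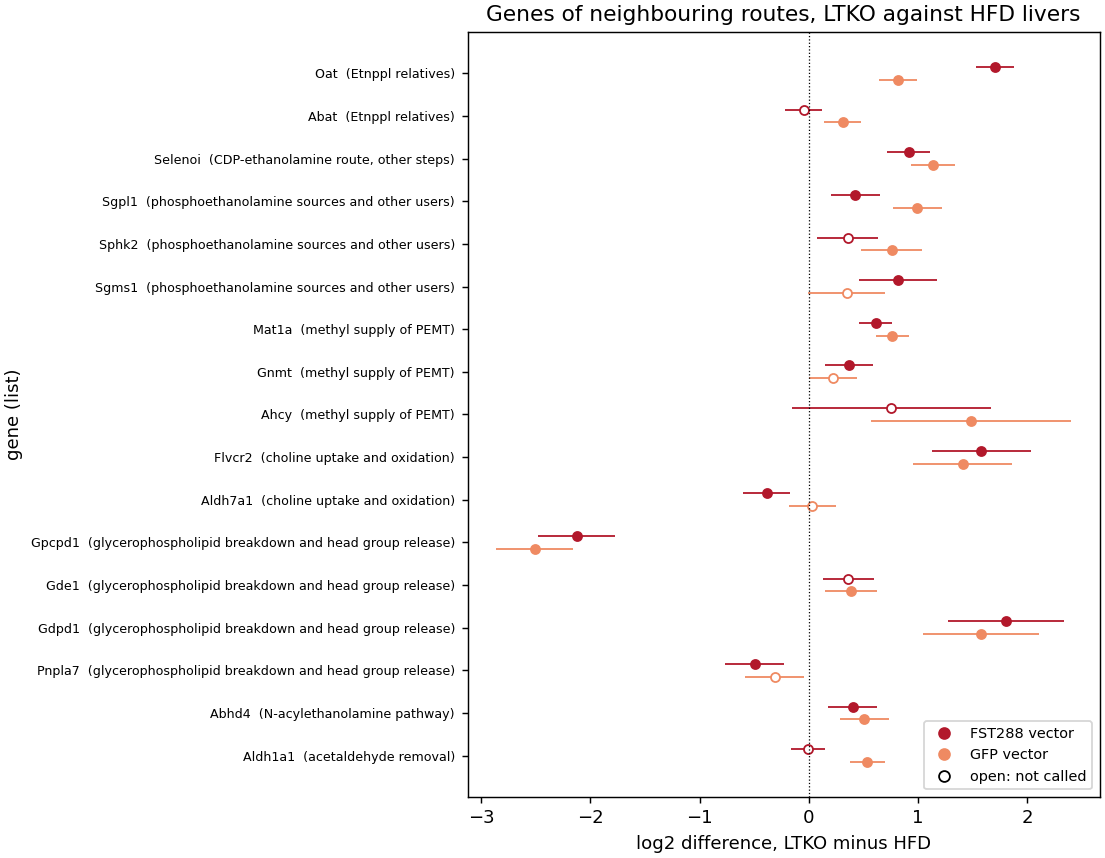
Log2 differences, LTKO minus HFD (horizontal axis), with 95% intervals of the fit, for the 17 list genes called in LTKO against HFD livers under either vector. Dark points are livers with FST288, light points livers with GFP, and open points were not called. Gpcpd1 stands alone near -2, while Oat, Flvcr2, Gdpd1 and Selenoi lie on the right under both vectors.

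Etnppl belongs to a family of aminotransferases, and its relatives did not all move with it. Oat, ornithine aminotransferase, was at 11.09 and 11.25 in LTKO FST288 and 11.09 and 10.97 in LTKO GFP livers. It was at 9.52, 9.47 and 9.41 in HFD FST288 and 10.11, 10.33 and 10.20 in HFD GFP livers. FST288 livers were thus lower only in the HFD background. Oat fell by 0.75 ± 0.07 on the log2 scale in HFD livers (limma, adjusted p = 0.000278), while the LTKO difference was 0.14 (adjusted p = 0.668). The difference between these effects, 0.89 ± 0.12, was called (adjusted p = 0.00924). That call was lost in 4 of 21 alternatives: without both acinar-high arrays (0.242), with eBayes without trend (0.094), with all transcript clusters (0.0903) and with the acinar marker median as a covariate (0.0696). The fall in HFD livers was -0.70 without both acinar-high arrays, with 1 array left in the group (adjusted p = 0.0775). Between backgrounds Oat was 3.26-fold higher in LTKO livers with FST288 and 1.76-fold higher with GFP (adjusted p = 2.36e-08 and 1.79e-05). Oat is itself one of the pericentral markers above.

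Abat, GABA transaminase, rose by 0.31 in LTKO GFP livers (limma, adjusted p = 0.0175). Its call was lost without HFD GFP replicate 1 (0.0633) and LTKO GFP replicates 1 (0.0725) or 2 (0.0755), and the difference was 0.06 with the mean of its clusters (0.795) and 0.19 with quantile normalization (0.124). Neither Phykpl, the closest relative of Etnppl, nor Agxt2 was called in any of the 6 comparisons. Of the enzymes that remove acetaldehyde, a product of Etnppl, Aldh1a1 rose with FST288 in HFD livers. Its values there were 11.68, 11.89 and 11.86, against 11.21, 11.34 and 11.21 with GFP, a difference of 0.56 ± 0.07 (adjusted p = 0.000973). That call was lost with the acinar covariate (0.45, adjusted p = 0.0531) and without both acinar-high arrays (0.43, with 1 array left in the group). In LTKO livers Aldh1a1 differed by 0.02 (adjusted p = 0.967), and the difference between the effects, -0.54, was not called (adjusted p = 0.0578). Aldh1a1 was also 1.45-fold higher in LTKO than in HFD livers with GFP (adjusted p = 0.000235). Aldh2 and Aldh1b1 were not called in any comparison. Averaged over backgrounds, Aldh1a1 (0.29, adjusted p = 0.0227) and Oat (-0.30, adjusted p = 0.0314) were called, and these calls were lost in 10 and 12 of 21 alternatives.

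Pearson correlation with Etnppl over the 10 arrays was taken for 1429 genes. These had a mean of at least 5 and an SD of at least 0.3, and were not predicted or unnamed loci or pseudogenes. The highest correlations belonged to 8 genes. They were Cblb, a ubiquitin ligase (0.976), Gclm, of glutathione synthesis (0.974), Csad, of taurine synthesis (0.955), Itih2, a plasma protein (0.954), Inhbe, the activin E subunit (0.952), Dcaf6 (0.947), the bile acid enzyme Hsd3b7 (0.947) and the sphingosine-1-phosphate receptor S1pr1 (0.945). These are descriptions: the arrays share 4 groups, and the order of the group means makes up most of each value. After subtraction of group means the correlations of the 8 genes ran from -0.58 (S1pr1) to 0.58 (Cblb), so arrays within a group did not follow Etnppl in a common way.

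The lowest correlations were -0.992 for the chemokine gene Ccl9, -0.966 for Asah2, a ceramidase, -0.956 for Rpa1 and -0.955 for Cyp2a12. Ccl9 ran opposite to Etnppl group by group, at 9.01 and 8.93 in LTKO FST288 and 8.17 and 8.41 in LTKO GFP livers. It was at 9.83, 9.69 and 9.72 in HFD FST288 and 9.28, 9.10 and 9.19 in HFD GFP livers. The groups did not overlap. After subtraction of group means the correlations were -0.65 for Ccl9, 0.35 for Asah2, -0.57 for Rpa1 and -0.58 for Cyp2a12.

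**Figure D4:**
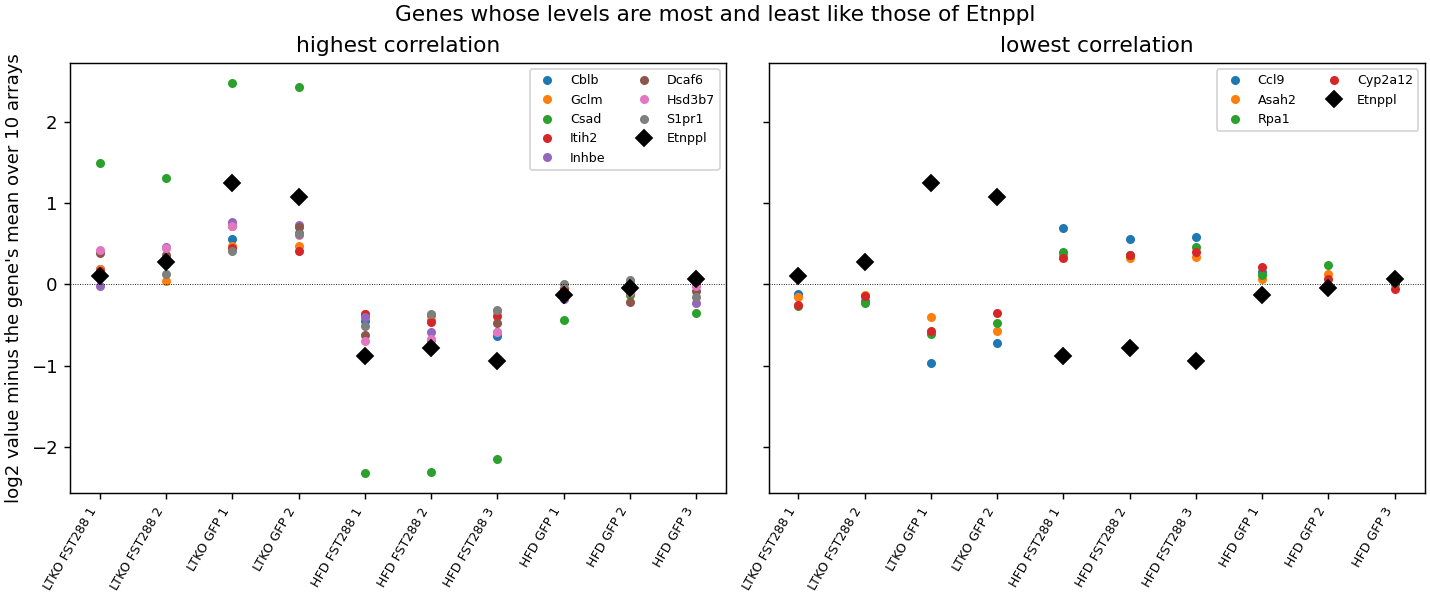
Log2 values minus each gene's mean over the 10 arrays (vertical axis) on each array (horizontal axis), for Etnppl (black diamonds) with the 8 genes of highest correlation on the left and the 4 of lowest correlation on the right. Csad spans a wider range than Etnppl, and Ccl9 mirrors it on the right.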

How the data were processed

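Labelled DNA made from liver RNA was hybridised to 10 Affymetrix whole-transcript arrays. The deposited values are RMA values on a log2 scale, made by the authors with Affymetrix Expression Console, per the submitters' processing notes (versions not stated). Base 2 follows from RMA and fits the range, 0.64 to 13.21. An array gives no read depth, and the number of arrays limits precision.

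Of 41345 transcript clusters, 23521 had 1 symbol, 1814 several and 16010 were not listed. Per gene the brightest cluster by mean over all arrays was used (1082 genes had several), which left 22180 genes. limma 3.58.1 in R 4.3.3 fitted 4 group means to all arrays, with eBayes and an intensity trend (6 residual and 7.15 prior degrees of freedom). Tests were two-sided, adjusted by Benjamini-Hochberg over all genes, and called under 0.05. Errors of differences are SE of the fit, and those of means are SD.

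Members, lists and tests were chosen with earlier results of these data known. Named list genes were those called in any comparison and each list's smallest p. Of the named genes in marker lists, those with a cluster of their own were used. RefSeq sequences are of GRCm38.p6, and 7 of the 8 genes had a promoter window. Alternatives changed the arrays, the variance model, weights, normalization, filter, clusters, features and a replicate block.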

Additional observations from a re-analysis of the deposited data

Results flagged for a closer look

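Oat, a relative of Etnppl, differed between backgrounds in its response to FST288: the LTKO effect minus the HFD effect was 0.89 on the log2 scale (limma interaction term, adjusted p = 0.00924). The effects were 0.14 in LTKO and -0.75 in HFD livers. Over 21 alternatives the difference ran from 0.81 to 1.06 and its adjusted p from 0.000902 to 0.242, the highest without both acinar-high arrays. No group had the 4 arrays needed to look for a single array far from its group.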

How the results depend on the processing

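The count of called genes among those tested changed in 2 comparisons. For FST288 against GFP averaged over backgrounds it was 1 (Chka) and was 0 in 13 of 21 alternatives: eBayes without trend, array weights, the mean of a gene's clusters, all transcript clusters, the replicate block, the acinar covariate, without both acinar-high arrays, and 6 of 10 leave-one-out fits, which ran from 0 to 1. The cause was not tested. For LTKO against HFD livers with FST288 it was 2, and 3 with quantile normalization and with dim genes left out. It stayed at 3 with GFP, and at 0 in the remaining comparisons. Of 780 alternative values of the measured genes, 13 lost a call, all of them Chka in that average, 2 gained one (Pcyt1a) and 0 reversed. Of 657 for list genes, 93 lost a call and 0 reversed. These losses cannot be set side by side, because only a called result can lose a call. All 30 list gene results were called, against a minority of the 36 results of measured genes. The Etnppl differences that chose the gene had no test. Uncalled values were compared by their side of the threshold only. The settings with the acinar markers were chosen after seeing the data. Same-numbered samples did not deviate together (correlations of -0.07 to 0.03), so the replicate block pairs numbers only. Beside that Chka call, it ended those of Aldh1a1 and Oat in the average, and of Abhd4, Aldh7a1 and Gnmt in LTKO against HFD livers with FST288. Counts over all genes moved more. For FST288 in HFD livers 221 became 41 with the acinar covariate, 80 with all clusters and 411 with the arrays of both groups alone. With 1 HFD FST288 array left out it was 217 (replicate 1), 80 (replicate 2) or 91 (replicate 3). Without both acinar-high arrays, replicates 2 and 3, 1 array was left in that group and the count fell further. In LTKO livers 37 became 0 with the 4 arrays alone, 15 with all clusters and 237 without LTKO FST288 replicate 1.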
